A study of Bos taurus with 12 samples.

Results

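Creatine kinases and the enzymes that store and release glycogen were followed here through bovine muscle cell differentiation. The group holds 9 of the 18436 genes in the deposited expression table, picked by symbol. They are CKM, CKB and CKMT2 (creatine kinases), PYGM, PYGB and PYGL (glycogen phosphorylases), PHKG1 (a catalytic subunit of phosphorylase kinase), GYS1 (glycogen synthase) and PPP1R3C (a subunit that brings protein phosphatase 1 to glycogen). All 9 genes had a row in the table. They were named with the GM and DM values of these data already known, both FPKM and m6A enrichment, so their GM to DM differences are given as descriptions without a test.

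The cells were primary myoblasts from the longissimus dorsi, the long back muscle, of a newborn Qinchuan calf. GM stands for myoblasts taken at 80% confluence in medium with 20% fetal bovine serum, and DM for myotubes taken after 4 days in medium with 2% horse serum, at 100% confluence. Each group had 3 cultures with an input (RNA-seq) and an m6A immunoprecipitated (IP) library each, 12 libraries in all. The cultures trace to the source the study describes as a newborn animal, so the spread between them is a spread between cultures and not between animals, and serum, confluence and time in culture cannot be told apart from differentiation.

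Creatine kinase moves a phosphate group between ATP and creatine, which gives contracting muscle a quick reserve of ATP. CKM is the cytosolic form of mature muscle, CKB the cytosolic form of brain and many other tissues, and CKMT2 the form that sits in the mitochondria of striated muscle. Glycogen is the stored glucose of the cell. Glycogen synthase lengthens its chains, and glycogen phosphorylase releases glucose 1-phosphate from them after phosphorylase kinase has switched it on. PYGM, PYGB and PYGL are named for the muscle, brain and liver forms. Loss of PYGM in people causes McArdle disease.

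FPKM summed over all genes lay between 415740 and 434458 in the GM inputs and between 386436 and 390827 in the DM inputs. The FPKM values carry no read counts, and library totals were not used here, so the number of reads behind a value is not given and its error is the spread of 3 libraries. All 8 muscle markers were in the table and summed to 1093 to 1169 FPKM in GM and 1482 to 1530 FPKM in DM. By limma 1 of them was called higher in DM, the embryonic myosin MYH3 (270 to 275 FPKM in GM, 642 to 670 FPKM in DM), and 4 were called lower, MYOD1, MYF5, PAX7 and ACTA1. The higher sum thus holds a higher MYH3 beside lower levels of these 4. MYOG, a transcription factor of committed muscle cells, was at 190 to 207 FPKM already in GM and at 226 to 253 FPKM in DM. PAX7, which marks muscle stem cells, lay between 0.979 and 1.17 FPKM in GM and between 0.0417 and 0.102 FPKM in DM. All 6 fibroblast markers were present, with a summed level of 10282 to 10429 FPKM in GM and 11633 to 12197 FPKM in DM. The 4 smooth muscle markers summed to 3060 to 3543 FPKM in GM and 2523 to 2697 FPKM in DM. This sum is carried by the 3 that passed the expression filter, and the other, weakly expressed, did not go with it. Whether the sum stands for smooth muscle cells was not tested. The adipocyte list of 5 genes summed to at most 2.75 FPKM in any library. Endothelial markers summed to at most 0.444 FPKM, and immune markers to at most 1.98 FPKM. Of the nerve and Schwann cell list, S100B stood at 9.12 to 10.6 FPKM in all 6. The summed fibroblast and smooth muscle levels did not overlap between the groups. However, 0 of the 6 fibroblast markers and 0 of the 3 tested smooth muscle markers were called, all of them being under the 1.5-fold limit. Several, among them the 3 smooth muscle markers, had a limma adjusted p under 0.05, as had 5268 of all 12302 tested genes. Some single fibroblast markers overlapped between the groups and others did not. The part of these cells in the differences below was not tested. In bulk RNA, fewer cells of a type and less RNA per cell cannot be told apart.

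Expression was compared on log2(FPKM + 1), where the added 1 draws the difference of weakly expressed genes toward 0. Of the 12302 genes averaging 0.5 FPKM or more, 11.8% were called at a limma Benjamini-Hochberg adjusted p under 0.05 and a fold change over 1.5, 602 (4.89%) higher and 846 (6.88%) lower in DM. On TPM, where 13494 genes passed the same filter, the split was 1046 higher and 851 lower and the median log2 difference 0.06, against −0.05 on FPKM. After size factors, with 12300 genes, 678 were higher and 706 lower with a median of 0.00096, so small differences below should be read against that shift. On TPM and after size factors the other 7 tested members kept their direction, and PPP1R3C did not on TPM. Of the 9 genes, 8 passed the expression filter and CKMT2 did not. Those meeting the call numbered 1 higher (CKM) and 2 lower (CKB and PHKG1), which follows from how the genes were chosen and supports nothing further. The 3 GM and 3 DM values did not overlap in 7 of the 8, against 54.1% of all tested genes. In 3 of them DM was higher (21.1% of all tested genes) and in 4 lower (33.0%).

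The cytosolic creatine kinases CKM and CKB stood near level in GM, and CKM was far above CKB in DM. CKM (chromosome 18, 52956472 to 52966223, minus strand, ARS-UCD1.2) was at 9.23, 9.52 and 11.8 FPKM in GM and at 43.2, 39.7 and 44.7 FPKM in DM. Every DM library was far above every GM library, with group means of 10.2 ± 1.41 and 42.5 ± 2.55 FPKM (SD, n = 3 each), a 4.17-fold higher mean in DM. On the log2(FPKM + 1) scale the difference was 1.97 with an SE of 0.092. CKB (chromosome 21, 68158057 to 68161297, minus strand) was at 11.0, 11.7 and 13.5 FPKM in GM and at 3.07, 3.23 and 2.44 FPKM in DM. All 3 DM values were below all 3 GM values, the GM mean of 12.1 ± 1.26 FPKM being 4.14-fold above the DM mean of 2.91 ± 0.418 FPKM (SD, n = 3), and the log2 difference was −1.74 with an SE of 0.10. The fold in one direction for the muscle form was therefore close to the fold in the other for the brain form.

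CKMT2 (chromosome 7, 81249419 to 81275010, plus strand), which is abundant in adult heart and oxidative muscle, was weakly expressed throughout. It was listed at 0.595, 0.372 and 0.513 FPKM in GM and at 0.149, 0.213 and 0.285 FPKM in DM. The DM values were the lower ones without overlap, but every value was under 0.6 FPKM, where differences are uncertain, and the gene was not part of the fitted table.

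**Figure D1:**
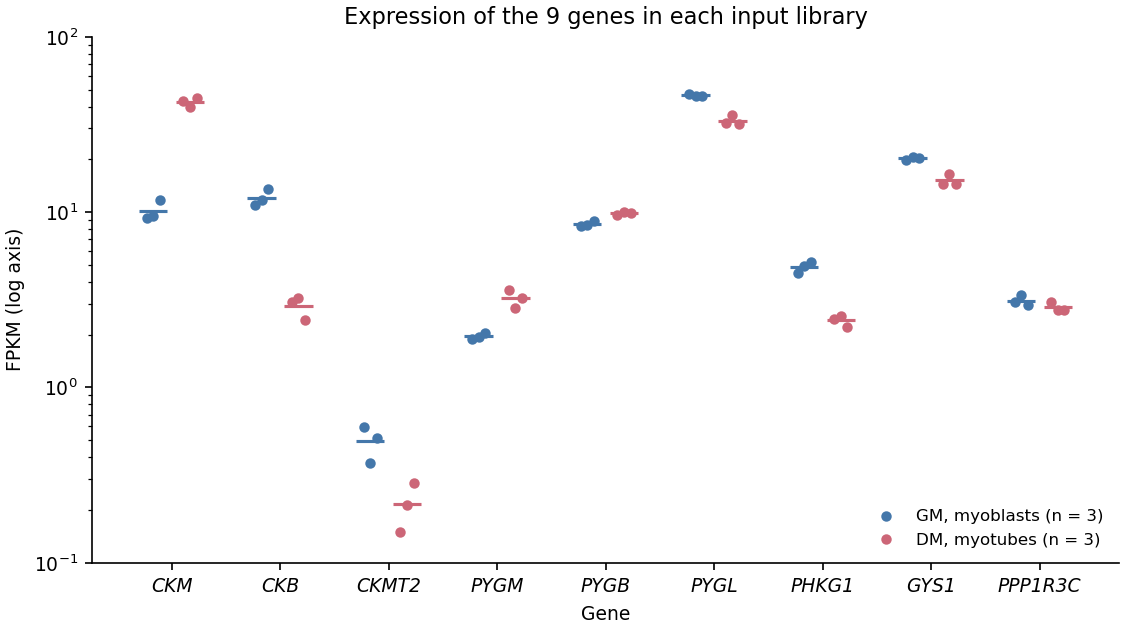
FPKM on a log axis for each of the 9 genes, with 1 point per input library (3 GM, 3 DM) and a line at the group mean. CKM lies between 9.23 and 11.8 in GM and between 39.7 and 44.7 in DM, CKB moves the other way, and only PPP1R3C has overlapping groups.

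FPKM is scaled to gene length, so isozymes can be set side by side within a library. How the reads shared by these related genes were assigned is not given in the sources used here. In each GM library CKM stood just under CKB, with CKM to CKB ratios of 0.839, 0.811 and 0.877. In DM the ratios were 14.0, 12.3 and 18.3. CKM made up 44.3, 44.0 and 45.8% of the summed creatine kinase FPKM in GM and 93.1, 92.0 and 94.3% in DM. The CKB share went from a mean of 53.1 ± 1.05% to 6.42 ± 1.18% (SD, n = 3), and CKMT2 held 2.19 ± 0.595% and then 0.472 ± 0.141%. The total itself also differed: the 3 genes summed to 22.7 ± 2.65 FPKM in GM and 45.6 ± 2.23 FPKM in DM.

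The glycogen phosphorylases showed no such turn to the muscle form. PYGM (chromosome 29, 42985611 to 42997675, minus strand), the muscle form, was at 1.88, 1.95 and 2.04 FPKM in GM and at 3.59, 2.82 and 3.25 FPKM in DM. Its groups did not overlap, and the DM mean was 1.65-fold the GM mean, with a log2 difference of 0.51 and an SE of 0.083. That difference is below the 1.5-fold limit on the log2(FPKM + 1) scale, and the gene passed it with a pseudocount of 0.1 (log2 difference 0.68) and on TPM (0.72). The study's own test, made on counts, listed PYGM as higher in DM past the same fold limit. PYGB (chromosome 13, 42775506 to 42811085, plus strand) was at 8.38, 8.41 and 8.92 FPKM in GM and at 9.65, 9.98 and 9.88 FPKM in DM, a small difference (log2 0.18, SE 0.054) in libraries that barely varied.

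PYGL (chromosome 10, 43742881 to 43797321, minus strand), named for the liver, was the most abundant phosphorylase in all 6 libraries. It was at 47.1, 46.2 and 45.7 FPKM in GM and at 32.2, 35.8 and 31.6 FPKM in DM, so every DM value was lower (log2 difference −0.47, SE 0.058). PYGL was 22.4 to 25.0 times the level of PYGM in the GM libraries and 8.99 to 12.7 times in the DM libraries. Of the summed phosphorylase FPKM, PYGL held 81.5 ± 0.756% in GM and 71.7 ± 1.68% in DM (SD, n = 3). PYGB held 15.1 ± 0.604% and 21.3 ± 0.782%, and PYGM 3.44 ± 0.159% and 6.98 ± 1.07%. The sum of the 3 was 56.9 ± 0.460 FPKM in GM and 46.3 ± 2.08 FPKM in DM. Of the phosphorylase transcripts in the DM cultures, most were thus of the liver form by this measure. Which cells of the bulk cultures carried them was not tested.

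**Figure D2:**
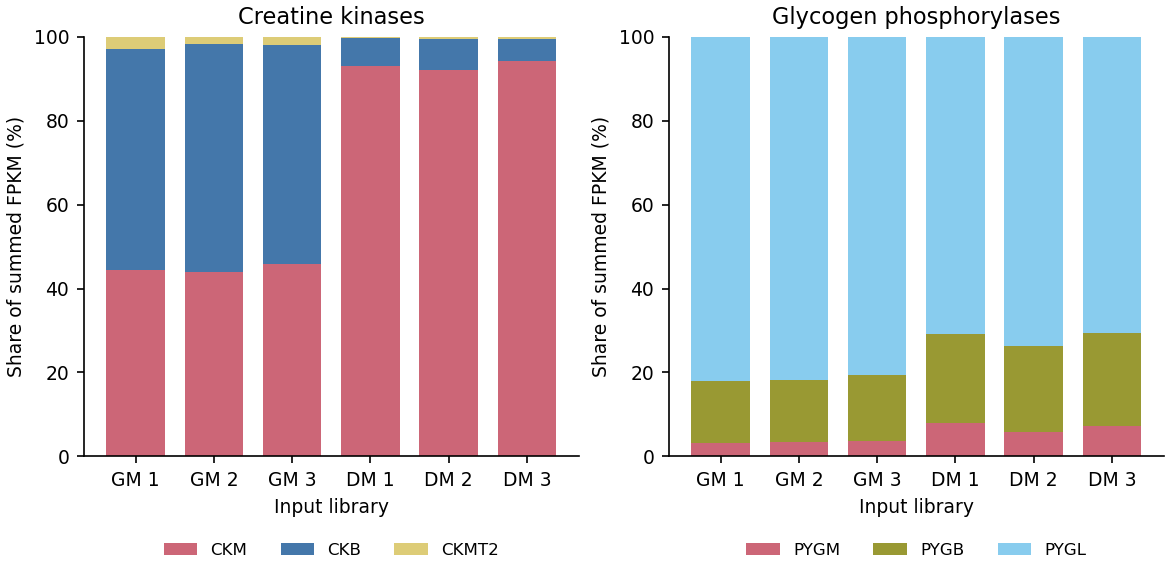
Share (%) of each isozyme in the summed FPKM of its family, 1 stacked bar per input library, creatine kinases at left and glycogen phosphorylases at right. CKM goes from 44.0 to 45.8% in GM to 92.0 to 94.3% in DM, whereas PYGL keeps the largest share in every library.

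PHKG1 (chromosome 25, 27749099 to 27763437, minus strand), the catalytic subunit of phosphorylase kinase used in muscle, was at 4.47, 4.91 and 5.23 FPKM in GM and at 2.47, 2.55 and 2.22 FPKM in DM. All DM values were below all GM values, with a GM mean 2.02-fold above the DM mean (log2 difference −0.78, SE 0.076). GYS1 (chromosome 18, 55541702 to 55558358, minus strand), the glycogen synthase of muscle and most other tissues, was at 19.9, 20.5 and 20.3 FPKM in GM and at 14.4, 16.5 and 14.5 FPKM in DM. Its groups were also separate, though the difference was modest (log2 −0.40, SE 0.063). PPP1R3C (chromosome 26, 13208458 to 13213362, minus strand) was at 3.08, 3.36 and 2.93 FPKM in GM and at 3.09, 2.77 and 2.75 FPKM in DM. These ranges overlapped, the log2 difference of −0.09 was about the size of its SE (0.073), and its sign turned on TPM (0.00038).

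The order of the levels shows what changed place. In GM it ran PYGL, GYS1, CKB, CKM, PYGB, PHKG1, PPP1R3C, PYGM and CKMT2, and the only neighbours whose ranges overlapped were CKB and CKM. In DM it ran CKM, PYGL, GYS1, PYGB, PYGM, CKB, PPP1R3C, PHKG1 and CKMT2. There PYGM overlapped CKB, and CKB overlapped PPP1R3C, so the ranges do not order these 3 genes, and CKB also overlapped PHKG1. Within each DM library, however, PYGM was above PPP1R3C and CKB above PHKG1.

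The rest of the pathway was read from lists of 37 other genes of creatine, adenylate and glycogen metabolism, of which 28 had a row in the table and 27 passed the filter. By limma with Benjamini-Hochberg adjustment over all tested genes and the 1.5-fold limit, 4 rose, 1 fell and 22 were not called, where 4.89% of all tested genes were called higher and 6.88% lower. These lists too were drawn up with results of these data known, so their p-values describe the size of a difference against the spread of the cultures and are not independent evidence. The median log2 fold change of the 27 was −0.01, against −0.05 over all tested genes.

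The strongest change was in a regulator. PPP1R3A, the subunit that anchors protein phosphatase 1 to glycogen in striated muscle, was at 0.800, 1.08 and 0.750 FPKM in GM and at 9.39, 9.43 and 9.45 FPKM in DM. It rose by 2.48 on the log2(FPKM + 1) scale (SE 0.081, limma Benjamini-Hochberg adjusted p = 3.4e-07), higher in 3 of 3 DM libraries. PPP1R3A was below its relative PPP1R3C in all 3 GM libraries and above it in all 3 DM libraries. The other 10 tested regulators were not called. They include PPP1R3B, another such targeting subunit, which missed the fold limit (log2 −0.50, SE 0.067, limma adjusted p = 5.5e-04).

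Among the adenylate enzymes, AMPD1, the AMP deaminase of skeletal muscle, went from 2.01 ± 0.170 to 12.8 ± 1.61 FPKM (SD, n = 3). It rose by 2.20 (log2, SE 0.095, limma Benjamini-Hochberg adjusted p = 1.2e-06). AMPD3, the form of red blood cells, went from 1.34 ± 0.186 to 0.534 ± 0.0797 FPKM (SD, n = 3) and was the 1 gene that fell (log2 −0.61, SE 0.090, limma adjusted p = 9.7e-04). With the added 1, the AMPD3 value lies next to the fold limit, while its mean FPKM was 2.51-fold lower in DM. Its log2 fold change was −1.19 with a pseudocount of 0.1, −0.83 with 0.5 and −0.81 on TPM, where it stayed called. It was −0.58 after size factors, −0.55 without GM replicate 2 and −0.57 without DM replicate 2, and in each of these the call was lost by the fold limit, with limma adjusted p between 5.6e-04 and 0.0050 over all alternatives run.

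In glycogen breakdown 2 of 4 tested genes rose, of which 1 is described. GAA, the acid glucosidase that degrades glycogen in lysosomes, went from 16.2 ± 1.28 to 25.4 ± 1.66 FPKM (SD, n = 3, log2 fold change 0.62, SE 0.073, limma adjusted p = 2.7e-04). None of the 6 tested genes of glycogen synthesis and neither of the 2 tested creatine synthesis genes was called. Without the fold limit, 2 of the 6 and 1 of the 2 had a limma adjusted p under 0.05, as had 5268 of all 12302 tested genes. Nothing further is read from these counts.

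**Figure D3:**
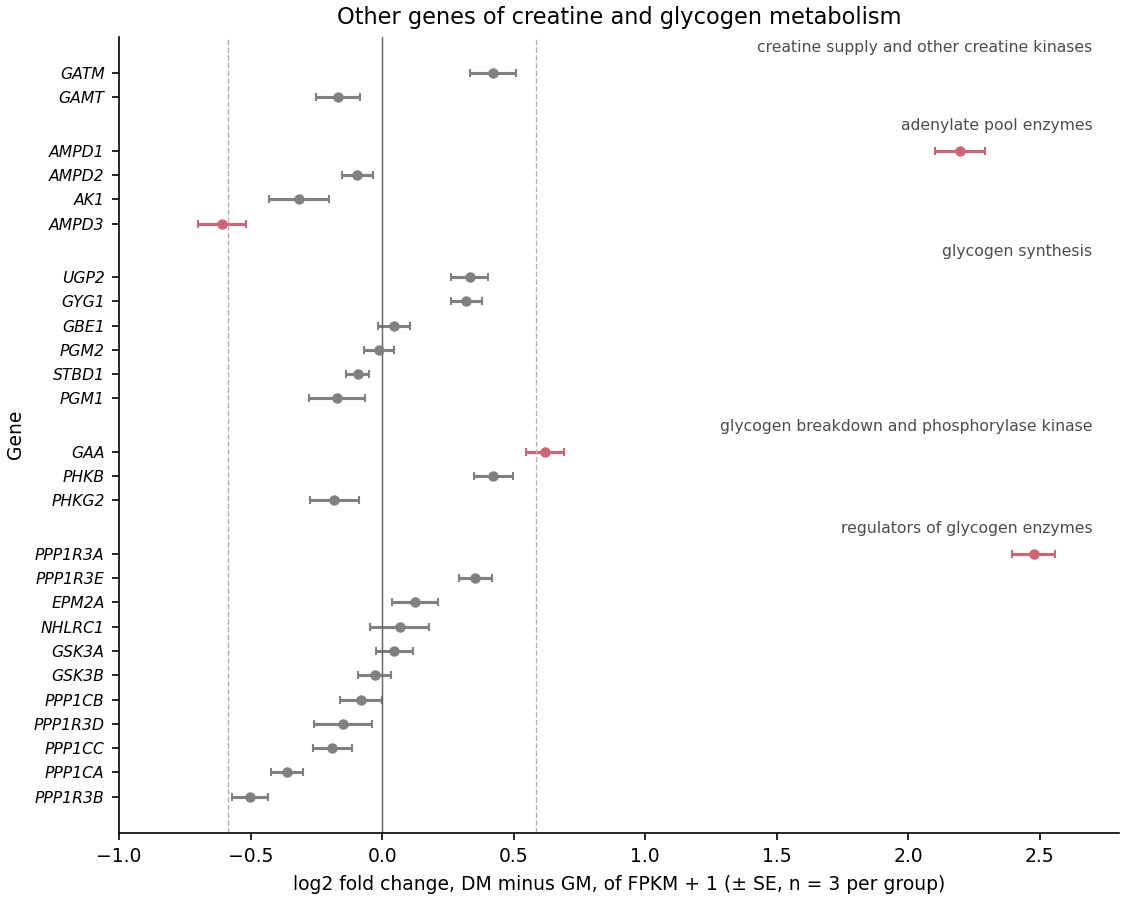
log2 fold change (DM minus GM, FPKM + 1, ± SE, n = 3 per group) of the tested genes of the pathway lists (1 of the 27 is not drawn), with called genes in red and dashed lines at the 1.5-fold limit. PPP1R3A (2.48) and AMPD1 (2.20) stand far to the right, GAA lies just past the limit, and AMPD3 (−0.61) lies just past it on the other side.

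The m6A mark was read from 2 pooled peak lists, 1 for GM (19739 peaks) and 1 for DM (20790 peaks). m6A is a methyl group on adenosine in mRNA, most frequent around the stop codon and in the 3′UTR. The fold enrichment of a peak is the ratio of IP to input reads in it, and each list gives 1 value per peak without a replicate error, so none of the differences below has a test. The 9 genes held 11 GM peaks and 12 DM peaks. Exactly 1 GM and 1 DM peak overlapped on the exons in 9 cases, in 6 genes. Over these pairs the median fold enrichment was 3.86 in GM and 2.22 in DM, whereas over all 10239 such pairs of the lists it was 3.42 and 3.60. Enrichment was lower in DM by more than 1.5-fold in 4 of the 9 pairs and higher in none (0). Of all pairs, 10.8% were lower and 14.2% higher. The m6A values were known when the genes were chosen, so this contrast is a description.

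CKM had the widest gap of the 9 pairs in these pooled values. Its single peak lies at chromosome 18, 52956472 to 52956770, in GM (fold enrichment 8.17) and at 52956472 to 52956711 in DM (fold enrichment 2.01), annotated to the 3′UTR in both. The enrichment was 4.06-fold lower in DM, and only 71 of the 10239 pairs had a lower ratio. The study's own differential peak analysis listed a smaller decrease for the CKM peak. It also listed a slightly larger decrease for PYGM than for CKM, so the size and the order depend on the method. The shared stretch covers 80.3% of the GM peak and the whole DM peak. CKB had no peak in either list, which was also true of 16.1% of the 4739 tested genes within 2-fold of its mean level. CKMT2 had 2 peaks in GM, 1 in exon 8 of 10 (fold enrichment 4.17) and 1 in the 3′UTR (6.53), and none in DM. The 3′UTR peak has a false discovery rate of 0.195, and the mean level of the gene in GM was 0.493 FPKM.

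Among the phosphorylases PYGM came closest to CKM. Its 3′UTR peak (chromosome 29, 42985611 to 42986000 in GM, to 42985940 in DM) had a fold enrichment of 6.63 in GM and 2.78 in DM, 2.38-fold lower. PYGB had a 3′UTR peak at 3.27 in GM and 1.41 in DM (2.32-fold), but the DM peak covers only 33.5% of the bases of the GM peak. Its other pair, in exon 3 of 20, was weak in both lists (1.34 and 1.18), and the DM peak of that pair has a false discovery rate of 0.115. PYGL kept both of its 3′UTR peaks at similar strength, 2.55 against 2.22 for the one nearer the end and 3.86 against 4.41 for the longer one, and had a further weak exon peak (1.18) in DM. A pair of the muscle form and a pair of the brain form passed the 1.5-fold limit, and both pairs of the abundant liver form stayed within it.

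GYS1 had a pair of 3′UTR peaks, at 4.21 in GM and 2.65 in DM near the end of the gene (1.59-fold lower) and at 1.85 and 1.28 upstream (1.45-fold lower). The main peak of PPP1R3C, covering 1164 exonic bases in GM and 1523 in DM, had a fold enrichment of 5.07 in GM and 6.29 in DM. This peak was annotated to the 3′UTR in GM and to the 5′UTR in DM, and the pair had the highest ratio among the 9 (1.24). A further peak, in the 3′UTR (2.84, false discovery rate 0.0295), was listed in DM alone. PHKG1 had 1 peak, in DM, annotated to the 5′UTR with a fold enrichment of 1.44.

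**Figure D4:**
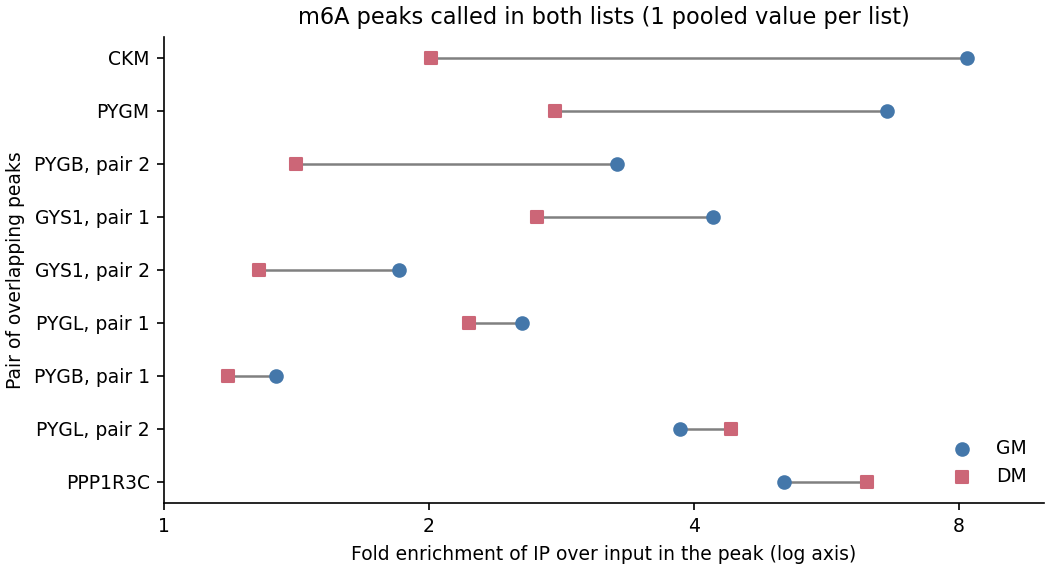
Fold enrichment of IP over input (log axis) for the 9 pairs of overlapping peaks, circles for GM and squares for DM, joined by a line. CKM, PYGM, the second PYGB pair and the first GYS1 pair lie more than 1.5-fold lower in DM, while PPP1R3C and the longer PYGL peak lie slightly higher.

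Position along the gene was not used to choose the genes. In CKM, PYGM, PYGB and GYS1 the GM peak with the large difference reached the annotated 3′ end of the gene. Of the GM peaks of the 9 genes annotated to the 3′UTR, 5 of 9 did so, and of the DM peaks 5 of 8, against 35.7% and 45.1% of all 3′UTR peaks in the GM and DM lists. In the 3 minus-strand genes of these 4 the DM peak reached the same end but was shorter on the upstream side. Its exonic length was 240 bases against 299 in GM for CKM, 330 against 390 for PYGM and 419 against 568 for GYS1. In PYGB it was the other way round, the DM peak ending 179 bases before the gene end. PYGL and PPP1R3C, whose enrichment differed little, had their strongest peaks 750 bases or more from the end. Other pairs went against this: the weaker PYGL pair lies at or near the end (from 0 bases in DM and 180 in GM) and was at 2.55 and 2.22, and the GYS1 pair that begins 955 bases upstream in DM and 985 in GM was 1.45-fold lower. With so few peaks these are descriptions of single genes.

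**Figure D5:**
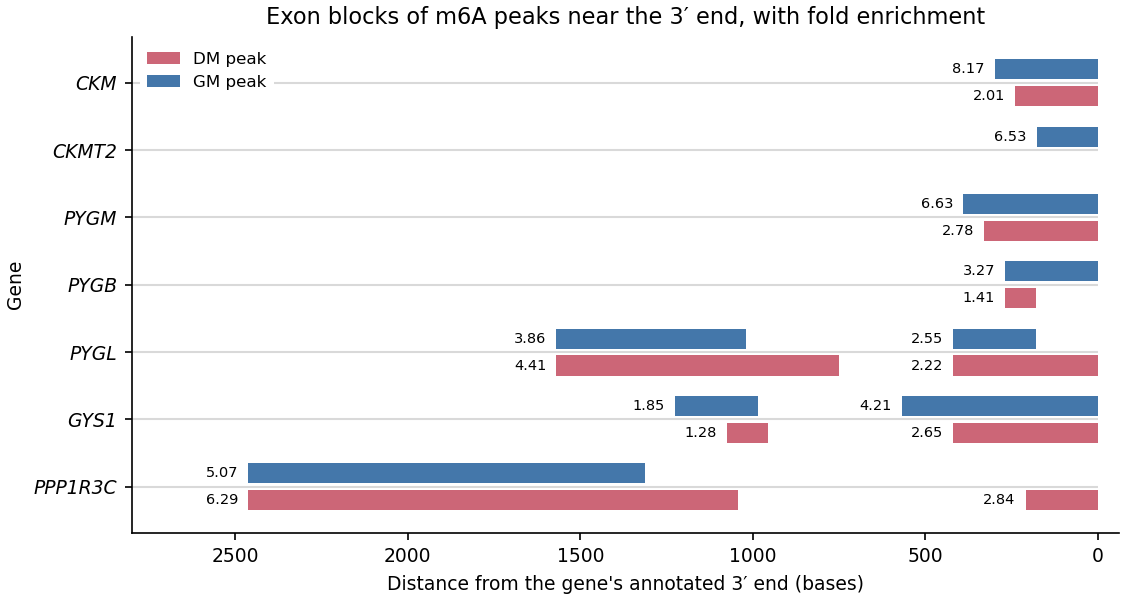
Exon blocks of the m6A peaks within 2800 bases of each gene's annotated 3′ end (x axis, bases, end at right), GM above and DM below each line, with fold enrichment beside each block. CKM, PYGM and GYS1 have blocks that reach the end in both lists with lower enrichment in DM, and blocks further upstream or in other exons are not drawn.

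The peaks of the pathway lists are given for comparison. Of the 28 genes in the table, 20 (71.4%) had a GM peak and 22 (78.6%) a DM peak, close to the 70.9% and 78.7% of all tested genes. Of their 12 pairs, 2 were higher and 3 lower in DM by more than 1.5-fold, with a median log2 ratio of −0.11 against 0.07 for all pairs. AMPD3 was among those higher (2.82 in GM, 7.72 in DM), but its mean level in DM was only 0.534 FPKM, where differences are uncertain. PPP1R3A had 3 GM and 2 DM peaks, none of them a pair of exactly 1 and 1, and AMPD1 had none in either list.

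The genes whose expression profile was most like that of CKM over the 6 inputs, by the mean absolute difference of centred log2(FPKM + 1) values among 12301 genes, were TRIM54 (0.034), a muscle RING finger protein of the sarcomere, CCKAR (0.075), the cholecystokinin A receptor, and MYOM2 (0.091), an M-band protein. TRIM54 went from 2.43 ± 0.385 to 12.2 ± 0.672 FPKM (SD, n = 3), and CCKAR, nearly absent in GM, was at 2.94 ± 0.235 FPKM in DM. For PYGM they were ARSG (0.026), a lysosomal sulfatase, ENSBTAG00000026527 (0.034) and GNPTAB (0.039), which helps mark enzymes for the lysosome. The 6 points fall into 2 groups, so this likeness is largely a like difference between GM and DM on the log2(FPKM + 1) scale. For CCKAR, with a GM mean of 0.0165 FPKM, it rests on the added 1, as its ratio of means was far larger than that of CKM.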

How the data were processed

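m6A-seq and RNA-seq libraries were strand-specific. The authors aligned reads with HISAT2 to ARS-UCD1.2 and quantified genes with StringTie. The deposited FPKM values cover the 6 inputs on 29 autosomes. The trimming tool is named differently in the study's methods and in the submitters' processing notes. For peaks, the authors pooled the libraries of a group, called enriched windows with exomePeak and annotated them with ChIPseeker. The deposited fold enrichment is a linear ratio of IP over input reads that exomePeak computed for the authors. The deposited score is the unadjusted p-value of a peak, at most 0.05, and further score columns hold log10 p and log10 false discovery rate as the authors' tool wrote them.

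Here limma 3.58.1 in R 4.3.3 with a variance trend was run on log2(FPKM + 1) for genes averaging 0.5 FPKM or more, with Benjamini-Hochberg adjustment over 12302 genes and calls at adjusted p under 0.05 and fold change over 1.5. The study tested counts, which were not used here. Peaks were paired in Python 3.11.15 with pandas 2.3.3 by at least 1 shared exonic base on the same strand, keeping pairs of exactly 1 GM and 1 DM peak. Both procedures were tested on simulated data. Members and gene lists were chosen with earlier results of these data known. Named genes are the 9 members, up to 4 called genes per list by size of change and the 3 nearest profiles of CKM and PYGM; PPP1R3B was named after its value was seen. Sequences were not analysed here, and 1 called pathway gene and 1 marker are not reported here.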

Additional observations from a re-analysis of the deposited data

How the results depend on the processing

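Alternatives changed the pseudocount, the filter, the scaling, the trend, the thresholds, the block, the peak sets and the libraries used. CKM stayed higher and CKB and PHKG1 lower in DM under each expression alternative run. A replicate block, entered as a term although deviations of same-numbered samples did not go together (r = −0.079, −0.12 and −0.21), left 3 called members, 5 called pathway genes and 1459 genes in all. Called members higher in DM numbered 2 instead of 1 with a pseudocount of 0.1 or 0.5 and on TPM, where PYGM passed the fold limit. Of all tested genes, 808 and 706 of 12302 were called higher with these pseudocounts and 1046 of 13494 on TPM, against 602 of 12302. Without a fold limit 7 of the 8 tested members met the call (3 higher, 4 lower), as did 5268 of all 12302 tested genes (1980 higher, 3288 lower). With a limit of 2-fold 1 member was higher and 1 lower, where 504 of all tested genes were called (232 higher, 272 lower). Of the 27 tested pathway genes, 2 were called (2 higher, 0 lower) at 2-fold and 12 (9 higher, 3 lower) without a fold limit, to be read against the same counts of all tested genes. The 1 pathway gene called lower, AMPD3, gave a count of 0 with size factors and with the filter on every library, where it was not tested. Leaving out 1 library gave 0 to 1 pathway genes lower, 4 higher and 3 members called, and the CKM share differed between groups by 47.8 to 48.9 percentage points. In the main setting 1448 of the 12302 tested genes were called.

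Of the m6A pairs, 4 were lower in DM, and 3 or 5 under the alternatives: 3 with a false discovery rate under 0.001 (of 6 pairs; 8.55% of all pairs lower), with fold enrichment of at least 2 (of 6; 11.3%), with 50% mutual overlap (of 7; 11.1%) and at 2-fold (of 9; 4.69%), and 5 after centring on the median of all pairs (of 9; 12.9%). None (0) was higher under any of these 5 settings. The PYGB pair in the 3′UTR was the one lost with the stricter false discovery rate, fold enrichment and overlap. At 2-fold, the GYS1 pair at the gene end (log2 ratio −0.67) no longer passed. Centring added the other GYS1 pair (log2 ratio −0.60). The FPKM values give no read depth, and the pooled peak values have no error.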

Other observations

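The product of a peak's fold enrichment and the gene's mean FPKM, a rough figure that mixes a peak value with a whole-gene value, was 83.2 in GM and 85.4 in DM for CKM, although both factors differed about 4-fold between the groups. For PYGM, also higher in expression and lower in enrichment in DM, the products were 12.97 and 8.95. The PYGB pair in the 3′UTR gave 28.0 and 13.9 and the pair in the exon 11.5 and 11.6, and the PYGL pairs gave 118 and 73.8 near the end and 179 and 147 for the longer peak. For GYS1, where expression and enrichment were both lower in DM, they were 85.3 and 40.2 for the peak at the gene end and 37.5 and 19.4 for the other. PPP1R3C gave 15.9 and 18.0 for its main peak. These values come without an error, and no test was made on them.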
